A study of Danio rerio with 7 samples.

Results

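Keratins and claudins were taken as every gene of the 2 deposited count tables whose symbol begins with krt and a digit, with cyt1 or with cldn. The rule found 46 of the 19648 genes present in either table, 20 keratins and 26 claudins, and 39 of them were in both tables, which share 16600 genes. The timeline table held 43 and the table of the second 18 hpf library held 42. cldn15la, cldna, krt98 and cldn23a were in the timeline table only, and krt1-c5, krt1-19d and krt18a.2 in the second table only. No count was used to choose them.

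The cells came from zebrafish embryos of the AB strain and 1 genotype, Tg(sox10:nEOS)w18, in which sox10 regulatory sequence drives a nuclear fluorescent protein that turns from green to red under light. Cells of the stream that fills the first pharyngeal arch were photoconverted, dissociated, sorted by FACS as red cells and sequenced on the 10x droplet platform. The timeline held 1 library each at 12, 14, 18, 20, 24 and 30 hpf (hours post-fertilisation) with chemistry v2, and a second 18 hpf library was made with chemistry v3. No age had a replicate library of its own chemistry, so classes of cells were compared within libraries and the libraries, which differ in age, stood as the replicates. Each p-value thus rests only on the spread between these libraries and on the spread over all genes that the fit borrows. A fit on 2 libraries has 1 residual degree of freedom and leans on that borrowing. A small p-value there does not show that both libraries gave the same difference. Each library pooled several embryos.

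Keratins are the intermediate filament proteins of epithelial cells, and each filament pairs a type I with a type II keratin. Krt8 (type II) and Krt18 (type I) make up the filaments of simple epithelia, and stratifying epithelia add others. Claudins are multi-pass membrane proteins that form the strands of tight junctions, and the set of claudins a tissue makes gives its junctions their permeability. Zebrafish skin at these ages is a bilayer, an outer enveloping layer called periderm over a basal layer marked by the transcription factor gene tp63, while the pharyngeal pouches are outpocketings of endoderm that mark off the arches.

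The 7 libraries held 2854 cells, 131 to 979 each, with 1711154 to 23950255 UMIs (unique molecular identifiers, each counting 1 captured transcript) per library and a median of 10808 to 23038 UMIs per cell. Cells were put into classes by marker genes that are neither keratins nor claudins. The s100a10b-positive epithelium (94 cells with 3 or more s100a10b UMIs and no other anchor), the pax1b-positive pouch class (54 cells), the shhb-positive foxa epithelium (84 cells), endothelium (126 cells) and twist1a-positive mesenchyme (741 cells) are the classes described, with sox10 crest (893 cells) and myeloid cells (272 cells) as further references. Of the 343 epithelial cells, 80 met the anchor rule of none of the 3 epithelial classes and 31 met several, and both sets were left out of the class sums. s100a10b divided the 343 into 212 cells with 0 UMIs, 27 with 1 to 2, 23 with 3 to 9 and 81 with 10 or more. A class entered a library's comparison only with 5 or more cells there, which left the s100a10b-positive epithelium at 18 hpf (7 cells), 20 hpf (18), 24 hpf (15) and in the second 18 hpf library (50), and the pouch class and foxa epithelium at 24 hpf (9 and 24 cells) and in the second 18 hpf library (36 and 53). Scrublet called 47 of the 131 cells at 30 hpf doublets, against 0 to 4 cells in each other library, and 1 cell barcode was shared between libraries, those of 12 and 14 hpf.

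The s100a10b-positive class was checked against markers of both skin layers, and these did not place it in one of them. Basal tp63 had a UMI in 7 of 7 cells at 18 hpf, 18 of 18 at 20 hpf, 12 of 15 at 24 hpf and 48 of 50 in the second 18 hpf library. tp63 was also common in the pouch class, in 6 of 9 cells at 24 hpf and 33 of 36 in the second 18 hpf library, and in the foxa epithelium, in 22 of 24 and 53 of 53 cells, so it did not separate the epithelia. In the s100a10b-positive class the basal genes itga6b and lamb4 reached at most 34.5 and 13.7 CPM. CPM are the counts of a gene scaled to all counts of its class and library. With tp63, itga6b and lamb4 form a basal list of 3 genes, and all 3 had counts in each s100a10b-positive library. Of the 3, 1 to 2 had counts in a pouch library and 1 to 3 in a foxa library. The list summed to 143 to 230 CPM in the pouch class, of which tp63 had 143 to 228. It summed to 270 to 341 CPM in the foxa epithelium, of which tp63 had 267 to 341. itga6b and lamb4 were thus more regular in the s100a10b-positive class, whose outer-layer genes summed higher too. Outer-layer anxa1c had a UMI in 1 of 7, 0 of 18, 4 of 15 and 5 of 50 s100a10b-positive cells of those libraries. Of further outer-layer genes, agr1 ranged over 0 to 119 CPM across those libraries and s100v2 over 0 to 36.7 CPM. icn2 ranged over 0 to 1865 CPM in the 3 libraries whose table held it. icn had 62.2 to 5462 CPM in the s100a10b-positive class, 119 to 1161 in the pouch class and 420 to 548 in the foxa epithelium. anxa1a had 84.6 to 243 CPM in the s100a10b-positive class, 16.8 to 33.9 in the pouch class and 23.4 to 82.4 in the foxa epithelium. Endothelium had 6.74 to 1179 CPM of icn and 19.9 to 104 CPM of anxa1a. cfl1l was present in every epithelial class, at 2973 to 4459 CPM in the s100a10b-positive class, 1131 to 1809 in the pouch class and 1704 to 2624 in the foxa epithelium. The whole outer-layer list, these genes and others, had up to 11 genes in a library's table. It summed to 3940 to 11768 CPM in the s100a10b-positive class, 1325 to 3054 CPM in the pouch class and 2343 to 3305 CPM in the foxa epithelium. The class is therefore named by its anchor gene and not called periderm. sox10 itself, whose reporter was sorted on, was present in these epithelia, at 184 to 2729.7 CPM in the s100a10b-positive class, 1052 to 4272 CPM in the pouch class and 2147 to 6339 CPM in the foxa epithelium.

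The members fell into few patterns. Summed over all keratins, the s100a10b-positive class reached 17709 to 26903 CPM, the pouch class 12940.1 to 15476, the foxa epithelium 13744 to 16161, endothelium 735 to 3239 and mesenchyme 775 to 1268 CPM. The claudin sums were 2320.3 to 3574 CPM in the s100a10b-positive class, 779.8 to 1430.3 in the pouch class, 1180.2 to 1509 in the foxa epithelium, 189 to 643 in endothelium and 43.3 to 61.7 in mesenchyme. All values are 3′ UMI counts over the total of a class in a library, not corrected for transcript length, so levels are compared between classes for 1 gene and never between genes. With at least 100 counts over the 5 classes there were 22 members, and by mean CPM over libraries 11 of these were highest in the s100a10b-positive class (8 keratins, 3 claudins), 5 in endothelium, 3 in the pouch class, 2 in the foxa epithelium and 1, krt18b, in mesenchyme. These means rest on different libraries, 4 of the s100a10b-positive class, 2 of the pouch class, 2 of the foxa epithelium, 4 of endothelium and 5 of mesenchyme. Over the 3 libraries that hold both endothelium and mesenchyme, the mean of krt18b was 98.5 CPM in endothelium and 65.8 CPM in mesenchyme. It was higher in endothelium in 2 of these libraries and lower in 1, and the difference was not called. Over the 2 libraries that hold all 3 epithelia, the mean of cldne was higher in the s100a10b-positive class than in the foxa epithelium. The mean of cldn11b was the other way round. For both genes the 2 libraries went opposite ways, so these means give no single direction. For cldne they had 591 against 40.1 CPM at 24 hpf and 0.749 against 272 CPM in the second 18 hpf library. The heatmap of levels by class and library shows 33 members, and the other 13 stayed under 10 CPM in every class drawn there.

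**Figure D1:**
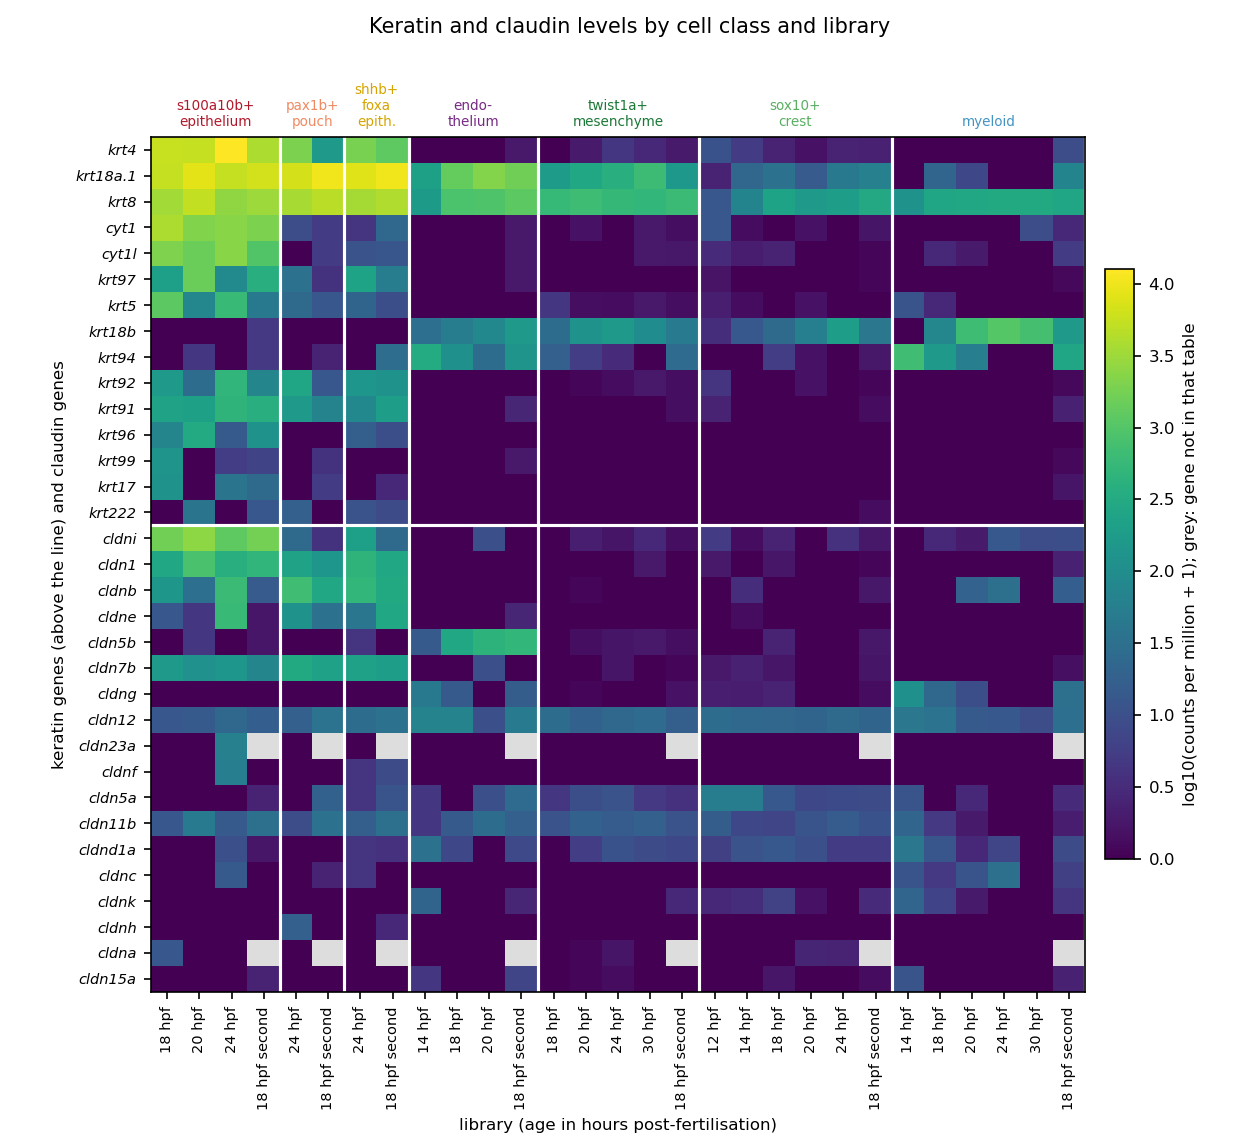
Levels of 33 keratin and claudin genes (down the page, keratins above the white line) in each class and library (across, grouped by class), as log10 of CPM + 1, with grey for a gene that is not in that library's table. The epithelial columns at the left hold krt4, krt18a.1, krt8 and most claudins, cldn5b stands out in endothelium only, and krt18a.1, krt8 and krt18b are the keratins that run through the mesenchyme columns.

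Which members set the s100a10b-positive epithelium apart from mesenchyme was tested over 4 libraries with edgeR's quasi-likelihood test on summed counts, with the library as a block and Benjamini-Hochberg adjustment over 6486 genes. Of the 19 members with enough counts to test, 16 were higher (11 keratins, 5 claudins), 2 were lower, krt18b and krt94, and 1, cldn12, was not called, at an adjusted p under 0.05. Of all genes tested, 16.1% were higher and 13.7% lower, and the median log2 difference was 8.65 over the 19 members and -0.08 over all genes. A member passes the count filter through the class in which it is high, so this count describes the members tested and is not evidence on the 46 as a set.

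The type I keratin genes cyt1 and cyt1l were called higher in the s100a10b-positive class than in mesenchyme, the pouch class and the foxa epithelium. The claudin cldni was called higher there than in mesenchyme and the pouch class. cyt1 stood at 3952, 2063 and 2346 CPM at 18, 20 and 24 hpf and 1977 CPM in the second 18 hpf library in that class, and cldni at 1679.8, 2536 and 1209.8 CPM at 18, 20 and 24 hpf and 1742 CPM in the second 18 hpf library. In the mesenchyme of the same 4 libraries cyt1 ranged over 0 to 0.602 CPM and cldni over 0 to 1.20 CPM, so no library of either class came near the other. The ratio of pooled CPM to mesenchyme was 5536 (95% counting interval 2370.4 to 17059.5) for cyt1 and 2354 (95% counting interval 1278 to 4913) for cldni, and both differences passed the test (log2 difference 12.29, SE 0.27, edgeR adjusted p = 5.52e-17 for cyt1). cyt1l lay at 2042, 1501 and 2319 CPM at 18, 20 and 24 hpf and 958 CPM in the second 18 hpf library in the class and at 0 to 0.805 CPM in mesenchyme (log2 difference 12.02, SE 0.37, edgeR adjusted p = 1.73e-14). cyt1 and cyt1l are closely related neighbours, and the split of counts between them depends on how reads shared by both were assigned.

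krt4, a type II keratin of the zebrafish skin surface, had 5765, 5491 and 12551 CPM at 18, 20 and 24 hpf and 3950.2 CPM in the second 18 hpf library in the s100a10b-positive class. Mesenchyme had 0, 1.00 and 3.53 CPM at 18, 20 and 24 hpf and 1.01 CPM in the second 18 hpf library, resting on 0, 5, 10 and 5 counts. Every library of the class was therefore far above every mesenchyme library, with a pooled ratio of 3423 (95% counting interval 2215 to 5607) and log2 difference 12.08, SE 0.19, edgeR adjusted p = 7.92e-19. krt5, in mammals the type II keratin of basal layers, was uneven across libraries, at 1184, 78.3 and 587 CPM at 18, 20 and 24 hpf and 45.0 CPM in the second 18 hpf library in the class, against 0.353 to 3.44 CPM in mesenchyme (log2 difference 8.53, SE 0.38, edgeR adjusted p = 2.52e-12). The 18 hpf and 24 hpf libraries were high for krt5 and the 20 hpf and second 18 hpf libraries low.

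The barrier claudin cldn1, whose mouse ortholog is needed for the water barrier of the epidermis, had 290.0, 824 and 389.5 CPM at 18, 20 and 24 hpf and 491 CPM in the second 18 hpf library in the s100a10b-positive class and 0 counts in mesenchyme of all 4 libraries. Against the floor of 3 counts over the group, cldn1 was at least 2273-fold higher, krt97 at least 2232-fold, krt96 at least 596-fold and krt17 at least 117-fold. krt97 and krt96 both peaked at 20 hpf, with 205, 1501 and 87.1 CPM at 18, 20 and 24 hpf and 383 CPM in the second 18 hpf library for krt97 and 72.5, 323 and 13.7 CPM at 18, 20 and 24 hpf and 119.9 CPM in the second 18 hpf library for krt96. krt17 had 121, 0 and 36.7 CPM at 18, 20 and 24 hpf and 25.5 CPM in the second 18 hpf library and lost its call in 3 of 17 alternatives, among them the DESeq2 Wald test. cldn7b (157, 116 and 142 CPM at 18, 20 and 24 hpf and 71.9 CPM in the second 18 hpf library) was present at every age, and it had 0 to 0.706 CPM in mesenchyme (log2 difference 8.54, SE 0.44, edgeR adjusted p = 2.22e-11). cldnb, a claudin of the lateral line and other epithelia, ranged over 14.2 to 623 CPM in the class and had 1 count in mesenchyme, a ratio of 1193 (95% counting interval 211 to 47382).

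krt91 and krt92, further type I keratin genes, were also higher in the s100a10b-positive class. krt91 had 229.6, 211 and 458 CPM at 18, 20 and 24 hpf and 386 CPM in the second 18 hpf library, against 0 to 0.402 CPM in mesenchyme (log2 difference 10.64, SE 0.38, edgeR adjusted p = 1.26e-13), and krt92 had 157, 27.2 and 499 CPM at 18, 20 and 24 hpf and 73.4 CPM in the second 18 hpf library, against 0 to 0.402 CPM (log2 difference 8.65, SE 0.45, edgeR adjusted p = 2.35e-11). cldn11b differed far less than these, with 12.1, 47.7 and 13.7 CPM at 18, 20 and 24 hpf and 31.5 CPM in the second 18 hpf library in the class and 10.3, 17.9 and 14.8 CPM at 18, 20 and 24 hpf and 10.1 CPM in the second 18 hpf library in mesenchyme (log2 difference 1.25, SE 0.36, edgeR adjusted p = 0.0130), and 4 of 17 alternatives ended the call. cldn12 did not pass the test, at 12.1 to 22.9 CPM in the class and 16.3 to 27.6 CPM in mesenchyme (log2 difference -0.15, SE 0.36, edgeR adjusted p = 0.823). krt18b ran the other way, with 0, 0 and 0 CPM at 18, 20 and 24 hpf and 3.75 CPM in the second 18 hpf library in the class and 27.6, 120.0 and 167 CPM at 18, 20 and 24 hpf and 49.9 CPM in the second 18 hpf library in mesenchyme (log2 difference -4.79, SE 0.48, edgeR adjusted p = 2.61e-07). krt94, at 0 to 3.75 CPM in the class and 2.12 to 26.6 CPM in mesenchyme, was lower by the test too (log2 difference -2.57, SE 0.69, edgeR adjusted p = 0.00822). It was below mesenchyme in 4 of 4 libraries and kept its call in 9 of 17 alternatives.

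The simple-epithelial pair krt18a.1 and krt8 was high in all 3 epithelia. In the s100a10b-positive class krt18a.1 had 5571, 8415 and 5379.7 CPM at 18, 20 and 24 hpf and 6621 CPM in the second 18 hpf library and krt8 3432, 5361 and 2621 CPM at 18, 20 and 24 hpf and 3135 CPM in the second 18 hpf library. In mesenchyme of the same libraries krt18a.1 had 179, 282 and 374 CPM at 18, 20 and 24 hpf and 152 CPM in the second 18 hpf library and krt8 548, 673 and 529 CPM at 18, 20 and 24 hpf and 618 CPM in the second 18 hpf library. The difference was larger for krt18a.1 (log2 difference 4.82, SE 0.19, edgeR adjusted p = 3.56e-13) than for krt8 (log2 difference 2.61, SE 0.13, edgeR adjusted p = 1.19e-11), whose level in mesenchyme was never below 516 CPM.

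The pouch and foxa epithelia were set against mesenchyme in the 24 hpf and second 18 hpf libraries. In the pouch class 9 of 14 members tested were higher and 1 lower, where 8.05% of all genes were higher and 6.58% lower, and the median log2 difference was 6.33 over the members and -0.07 over all genes. In the foxa epithelium 13 of 19 were higher and 1 lower, with 9.26% and 5.76% of all genes, and medians of 5.40 and -0.05. With 2 libraries, each of these fits has 1 residual degree of freedom and borrows its spread from all genes, so its p-values rest on that borrowing. The members higher in both classes were cldn1, cldn7b, cldnb, cldne, krt18a.1, krt4, krt8, krt91 and krt92, and the foxa epithelium added cldni, cyt1l, krt5 and krt97. The lower member was krt18b in both, with 0 counts in either class, at least 24.5-fold lower in the pouch class and at least 40.9-fold lower in the foxa epithelium. All of these calls but those of cldne, krt18b, krt97 and cyt1l held under every alternative that could be fitted, and for cldne, krt18b and krt97 the 1 setting that ended a call was the DESeq2 Wald test.

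cldnb, cldn1 and cldn7b were the claudins that marked the pouch and foxa epithelia alike, and each was at or near 0 counts in mesenchyme. cldnb had 707 CPM at 24 hpf and 283 CPM in the second 18 hpf library in the pouch class and 521 CPM at 24 hpf and 309 CPM in the second 18 hpf library in the foxa epithelium, at least 901-fold and at least 928-fold above mesenchyme. cldn1 had 227 CPM at 24 hpf and 142 CPM in the second 18 hpf library in the pouch class and 461 CPM at 24 hpf and 285 CPM in the second 18 hpf library in the foxa epithelium, at least 401-fold and at least 844-fold above mesenchyme. cldn7b had 303 CPM at 24 hpf and 224 CPM in the second 18 hpf library in the pouch class (log2 difference 9.18, SE 0.64, edgeR adjusted p = 4.59e-43) and 217 CPM at 24 hpf and 195 CPM in the second 18 hpf library in the foxa epithelium (log2 difference 8.99, SE 0.45, edgeR adjusted p = 6.45e-05), so that it differed little between ages and epithelia. cldne, a claudin of the zebrafish surface layer, was at least 121-fold higher in the pouch class and at least 572-fold higher in the foxa epithelium than in mesenchyme, which had 0 counts.

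Among the keratins, krt18a.1 had 6807 CPM at 24 hpf and 10424 CPM in the second 18 hpf library in the pouch class and 7782 CPM at 24 hpf and 10417 CPM in the second 18 hpf library in the foxa epithelium, against 374 CPM at 24 hpf and 152 CPM in the second 18 hpf library in mesenchyme (log2 difference 5.40, SE 0.42, edgeR adjusted p = 2.62e-04 for the foxa epithelium). krt8 had 3652 CPM at 24 hpf and 4772 CPM in the second 18 hpf library in the pouch class and 3539 CPM at 24 hpf and 4065 CPM in the second 18 hpf library in the foxa epithelium, against 529 CPM at 24 hpf and 618 CPM in the second 18 hpf library in mesenchyme (log2 difference 2.89, SE 0.17, edgeR adjusted p = 8.27e-05 for the foxa epithelium). Both epithelia were above mesenchyme in both libraries. The skin-associated keratin krt5 (20.0 CPM at 24 hpf and 8.72 CPM in the second 18 hpf library) and cyt1l (10.0 CPM at 24 hpf and 11.6 CPM in the second 18 hpf library) were low in the foxa epithelium beside their s100a10b-positive levels. Both were above mesenchyme, which had 0.353 to 0.402 CPM of krt5 and 0 to 0.805 CPM of cyt1l. krt97 had 237 CPM at 24 hpf in the foxa epithelium, above the 87.1 CPM of the s100a10b-positive class. In the second 18 hpf library it had 51.4 CPM, below the 383 CPM of that class.

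Whether any member separates the 3 epithelia from each other was tested in the same 2 libraries. Between the s100a10b-positive class and the pouch class 3 of 17 members tested were higher and 0 lower, where 0.310% of all genes were higher and 0.0954% lower. These 3 were cyt1 (log2 difference 8.43, SE 0.37, edgeR adjusted p = 0.00635), cyt1l (log2 difference 8.13, SE 0.56, edgeR adjusted p = 0.0305) and cldni (log2 difference 7.57, SE 0.71, edgeR adjusted p = 0.0397), each higher in both libraries. cyt1 had 2346 CPM at 24 hpf and 1977 CPM in the second 18 hpf library in the s100a10b-positive class and 8.41 CPM at 24 hpf and 4.42 CPM in the second 18 hpf library in the pouch class. cldni had 1209.8 CPM at 24 hpf and 1742 CPM in the second 18 hpf library in the s100a10b-positive class and 25.2 CPM at 24 hpf and 2.95 CPM in the second 18 hpf library in the pouch class. The pouch values of cyt1 and cldni rest on at most 3 counts each, and cyt1l had 0 CPM at 24 hpf and 4.42 CPM in the second 18 hpf library there.

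Against the foxa epithelium 3 of 18 members were higher in the s100a10b-positive class and 1 lower, where 0.334% and 0.236% of all genes were. cyt1 (log2 difference 6.99, SE 0.51, edgeR adjusted p = 0.0187) and cyt1l (log2 difference 6.76, SE 0.37, edgeR adjusted p = 0.00518) were again the largest of these differences. Both calls were lost in 2 of 13 alternatives, with no replicate block and with 1 or more s100a10b UMIs asked. krt4 had 12551 CPM at 24 hpf and 3950.2 CPM in the second 18 hpf library in the s100a10b-positive class and 1903 CPM at 24 hpf and 1226 CPM in the second 18 hpf library in the foxa epithelium (log2 difference 2.08, SE 0.24, edgeR adjusted p = 0.0351). krt18a.1 was lower, at 5379.7 CPM at 24 hpf and 6621 CPM in the second 18 hpf library in the s100a10b-positive class, against 7782 CPM at 24 hpf and 10417 CPM in the second 18 hpf library in the foxa epithelium (log2 difference -0.71, SE 0.08, edgeR adjusted p = 0.0323). cldni was higher in both libraries, with 1209.8 CPM at 24 hpf and 1742 CPM in the second 18 hpf library in the s100a10b-positive class against 204 CPM at 24 hpf and 25.2 CPM in the second 18 hpf library in the foxa epithelium, and missed the threshold (log2 difference 4.15, SE 0.86, edgeR adjusted p = 0.151).

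Between the pouch class and the foxa epithelium 0 of 13 members were higher and 4 lower, where 1.12% and 1.28% of all genes were. krt97 had 33.7 CPM at 24 hpf and 2.95 CPM in the second 18 hpf library in the pouch class and 237 CPM at 24 hpf and 51.4 CPM in the second 18 hpf library in the foxa epithelium (log2 difference -3.38, SE 0.55, edgeR adjusted p = 2.53e-07), and cldni had 25.2 CPM at 24 hpf and 2.95 CPM in the second 18 hpf library in the pouch class and 204 CPM at 24 hpf and 25.2 CPM in the second 18 hpf library in the foxa epithelium (log2 difference -3.05, SE 0.62, edgeR adjusted p = 1.01e-04). Both were lower in both libraries, as was cldn1 (log2 difference -1.04, SE 0.30, edgeR adjusted p = 0.0279), whose call was lost under 9 of 11 alternatives. krt4 was called lower (log2 difference -1.43, SE 0.26, edgeR adjusted p = 7.03e-06), but it was lower only in the second 18 hpf library, at 164 CPM in the pouch class and 1226 CPM in the foxa epithelium, while at 24 hpf the pouch class had 1977 CPM and the foxa epithelium 1903 CPM. cldnb, cldn7b, krt8 and krt18a.1 did not pass the test between these classes. Without the library as a block, 0 of the 4 calls remained.

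**Figure D2:**
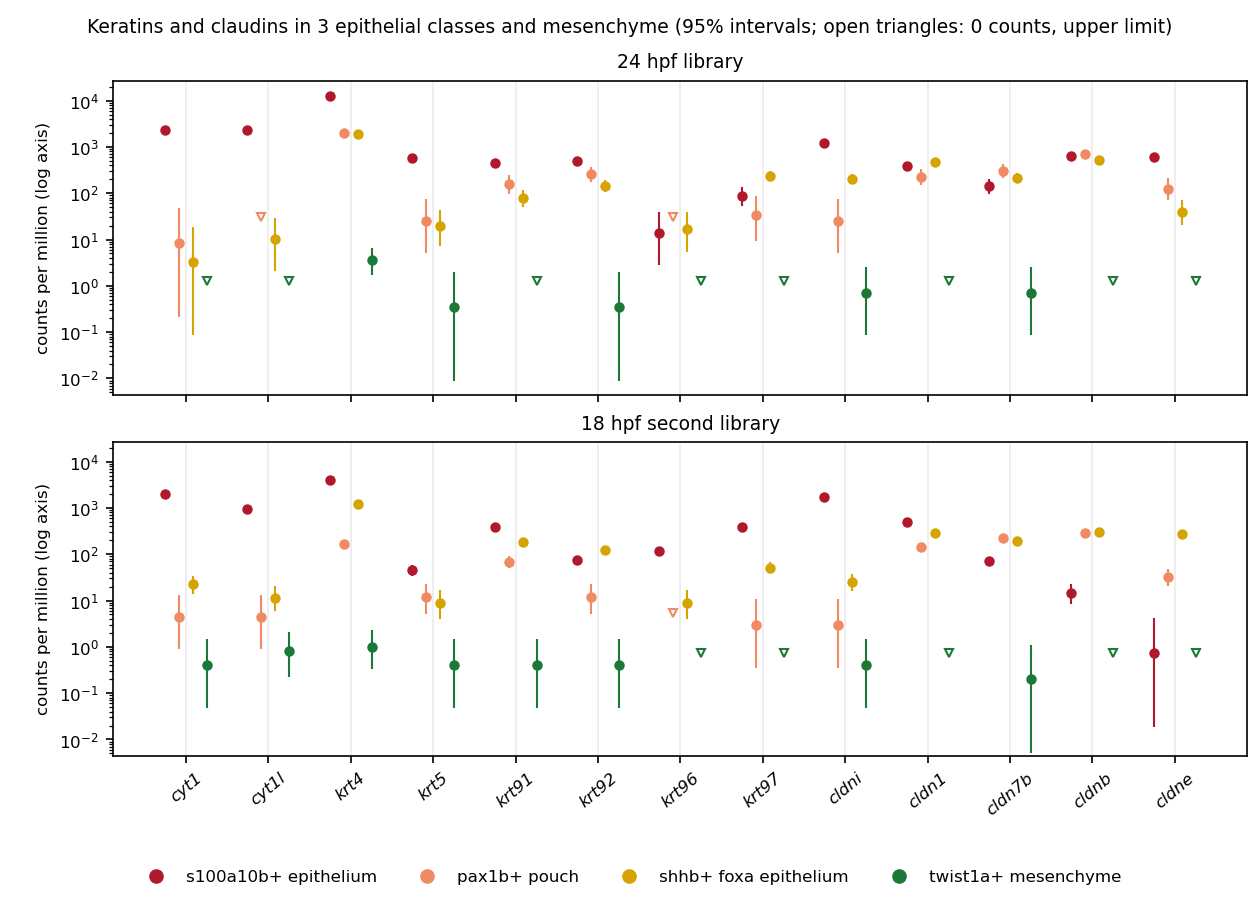
CPM on a log axis with exact Poisson 95% intervals for 13 members in the s100a10b-positive, pouch and foxa epithelia and in mesenchyme, at 24 hpf (top) and in the second 18 hpf library (bottom). Open triangles mark the upper limit of a class with 0 counts. cyt1, cyt1l and cldni lie higher in the s100a10b-positive class than in both other epithelia in either library. The difference of cldni from the foxa epithelium was not called. cldne of that class lies above both at 24 hpf and below both in the second library.

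cldne and cldnb had no single place among the epithelia. cldne had 12.1, 3.40 and 591 CPM at 18, 20 and 24 hpf and 0.749 CPM in the second 18 hpf library in the s100a10b-positive class, 126 CPM at 24 hpf and 32.4 CPM in the second 18 hpf library in the pouch class and 40.1 CPM at 24 hpf and 272 CPM in the second 18 hpf library in the foxa epithelium. These pouch and foxa levels rest on few cells, with 15 and 22 counts in 2 of 9 and 2 of 36 pouch cells and 12 and 281 counts in 2 of 24 and 13 of 53 foxa cells. At 24 hpf the s100a10b-positive class was the highest of the 3, and in the second 18 hpf library it was the lowest, with 1 count. cldnb had 145, 30.6 and 623 CPM at 18, 20 and 24 hpf and 14.2 CPM in the second 18 hpf library in the s100a10b-positive class, so that it lay near the 707 CPM of the pouch class at 24 hpf and lay far below its 283 CPM in the second 18 hpf library. Age and chemistry differ together between these libraries and cannot be told apart.

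At 24 hpf cldne and cldnb of the s100a10b-positive class lay mostly in few cells. The 4 of 15 s100a10b-positive cells with a UMI of anxa1c held 32.3% of all UMIs of the class, but 100% of the 129 counts of cldne, of the 12 of cldnf, of the 13 of cldn23a and of the 8 of krt17. They also held 98.2% of the krt92 counts, 92.6% of cldnb, 86.7% of krt5 and 60.5% of krt4. Their share of cldni (18.9%) and of cldn1 (12.9%) lay below their share of all UMIs. Without them the class had 0 CPM of cldne, 67.7 of cldnb, 115 of krt5 and 7328 of krt4, and still 1448 of cldni and 1847 of cyt1.

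**Figure D3:**
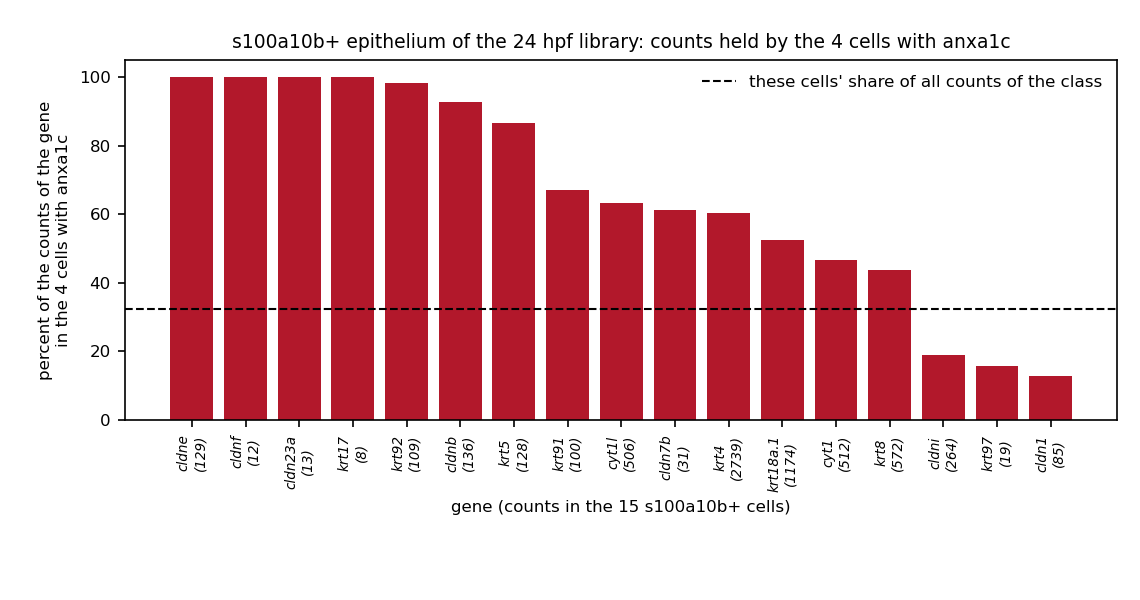
Share of each member's counts (percent, bars from 0) that lay in the 4 anxa1c-positive cells of the 15 s100a10b-positive cells at 24 hpf, with the member's counts in brackets and the share of all counts in those 4 cells as a dashed line. cldne, cldnf, cldn23a and krt17 sit at 100%, and cldni, krt97 and cldn1 below the line.

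Over all libraries and epithelial cells, 8 cells had 3 or more UMIs of anxa1c, and 5 of them were in the 24 hpf library. They were picked after their values were seen and are described without a test. Pooled, they had 14281 CPM of krt4, 8475 of krt18a.1, 3676 of cyt1l, 2435 of krt92, 2052 of cldnb, 1786 of cldne and 1299 of krt5. The libraries differed widely, over 25.7 to 2765 CPM for cldne, 0 to 2999 for cldnb and 0 to 5373 for krt5. The cldne counts were 1 in the 1 cell at 18 hpf, 248 in the 5 at 24 hpf and 25 in the 1 at 30 hpf. The 1 such cell of the second 18 hpf library had 1. cldni, high in the summed counts of the s100a10b-positive class, was present in 1 of the 8. Within the s100a10b-positive class, krt4 and cyt1l were thus found with and without anxa1c, whereas cldne outside anxa1c-positive cells had 0 counts at 18 hpf, at 24 hpf and in the second 18 hpf library and 1 count at 20 hpf.

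Leaving the s100a10b-positive cells with a UMI of anxa1c out, an alternative added after the data were seen, changed the comparisons among epithelia more than those with mesenchyme. Against mesenchyme 17 members passed, where 18 had passed with all cells, and of 6537 genes 1047 were higher and 1045 lower. Against the pouch class 12 members passed in place of 3, 7 higher and 5 lower, where 4.18% of all genes were higher and 3.58% lower. Over all genes, too, more passed than with all cells, where 0.310% were higher and 0.0954% lower. The added higher members were cldn1, krt4, krt91 and krt97, and the lower ones cldn7b, cldnb, cldne, krt18a.1 and krt8. Against the foxa epithelium 11 passed in place of 4, 5 higher and 6 lower, where 1.97% of all genes were higher and 2.51% lower, with cldne, cldnb, cldn7b, krt92 and krt8 added on the lower side and cldni and krt96 on the higher one. The residual degree of freedom is again 1, and the cells removed were chosen for a gene of the outer layer, so these counts are a description of the remaining cells.

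The 80 epithelial cells that met no anchor rule numbered 5 or more at 20 hpf, 24 hpf and in the second 18 hpf library. s100a10b, below its threshold in each cell, had 9.65 to 37.7 CPM in them. They held krt18a.1 at 5404 and 7545 CPM at 20 and 24 hpf and 9412 CPM in the second 18 hpf library and krt4 at 3155 and 4202 CPM at 20 and 24 hpf and 1163 CPM in the second 18 hpf library. cldnb lay at 1486 and 2297 CPM at 20 and 24 hpf and 230.2 CPM in the second 18 hpf library and cldne at 579 and 1303 CPM at 20 and 24 hpf and 144 CPM in the second 18 hpf library in them. cldnh, rare elsewhere, was found in these cells, at 193 and 143 CPM at 20 and 24 hpf and 81.6 CPM in the second 18 hpf library, resting on 20, 19 and 79 counts in 2 of 8, 3 of 10 and 2 of 52 cells. The cldne counts there, 60, 173 and 139, lay in 2 of 8, 3 of 10 and 6 of 52 cells. cyt1 had 569 and 22.6 CPM at 20 and 24 hpf and 195 CPM in the second 18 hpf library in these unanchored cells. cyt1l had 309 and 67.8 CPM at 20 and 24 hpf and 26.8 CPM in the second 18 hpf library. cldni had 212 and 60.2 CPM at 20 and 24 hpf and 236 CPM in the second 18 hpf library. cldnh had 2 counts each in the pouch class at 24 hpf and the foxa epithelium of the second 18 hpf library, and was picked out after its values were seen. Over all epithelial cells with or without an anchor, krt4 was already present at 14 hpf, at 469 CPM in 5 cells, beside 4464 CPM of krt18a.1 and 321 CPM of cldnb, while cyt1, cldni and krt5 had 0 counts in those 5 cells. At 30 hpf the 14 epithelial cells had 8899.6 CPM of krt4 and 4820.4 CPM of cyt1, and Scrublet called 13 of the 14 doublets.

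Endothelium was marked by cldn5b. This vascular claudin, whose mammalian counterpart Cldn5 seals blood vessels, had 13.5, 278 and 454 CPM at 14, 18 and 20 hpf and 511 CPM in the second 18 hpf library in endothelium. Mesenchyme of the 3 libraries compared (18 hpf, 20 hpf and the second 18 hpf library) had 0 and 0.401 CPM at 18 and 20 hpf and 0.402 CPM in the second 18 hpf library, and the pooled ratio was 1231 (95% counting interval 479 to 4532). Of 7 members tested 4 were higher in endothelium and 0 lower, where 15.8% of all genes were higher and 14.8% lower, with a median log2 difference of 1.1 over the members and -0.06 over all genes. The 4 were cldn5b (log2 difference 9.93, SE 0.38, edgeR adjusted p = 2.76e-12), krt18a.1 (log2 difference 3.03, SE 0.17, edgeR adjusted p = 4.77e-10), krt8 (log2 difference 0.61, SE 0.16, edgeR adjusted p = 0.00647) and krt94 (log2 difference 2.35, SE 0.36, edgeR adjusted p = 6.70e-05).

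krt18a.1 had 209, 1339 and 2195 CPM at 14, 18 and 20 hpf and 1648 CPM in the second 18 hpf library in endothelium and krt8 169, 882 and 934 CPM at 14, 18 and 20 hpf and 1161 CPM in the second 18 hpf library, so that both were low at 14 hpf and stood between mesenchyme and the epithelia from 18 hpf on. At 20 hpf, where epcam reached 181 CPM in the endothelial cells, krt18a.1 stood at 1339 CPM once cells with a UMI of an epithelial anchor, epcam or cdh1 were left out. The krt8 call was lost in 5 of 15 alternatives and the krt94 call in 2, among them the one that kept only cells whose cluster was of the same class (101 of 126 endothelial cells). krt94 had 327, 113 and 27.2 CPM at 14, 18 and 20 hpf and 129.7 CPM in the second 18 hpf library in endothelium. The myeloid marker list summed to 90.7 to 1153 CPM in the endothelial libraries, with 2 to 10 of its 12 genes above 0 and spi1b at 0 to 1068 CPM, against 3.88 to 12.1 CPM in mesenchyme, and the part of such counts in krt94 was not tested. In endothelium krt18b had 30.3, 53.0 and 81.6 CPM at 14, 18 and 20 hpf and 161 CPM in the second 18 hpf library, against 27.6 to 167 CPM in mesenchyme. Of the claudins and keratins that mark the epithelia, krt4, cyt1, cyt1l, krt5, krt91, krt96, krt97, cldn1, cldnb, cldne and cldni had at most 2 counts in any endothelial library.

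In twist1a-positive mesenchyme 3 keratins, krt18a.1, krt8 and krt18b, had at least 27.6 CPM in every library. krt5 had counts in each of the 5 libraries as well, but only 7 in all. krt18a.1 had 179, 282, 374 and 649.8 CPM at 18, 20, 24 and 30 hpf and 152 CPM in the second 18 hpf library. With all cells of the class, krt18a.1 was lowest over the timeline at 18 hpf and highest at 30 hpf, and the second 18 hpf library lay close to the first. Neither held in the cells whose cluster was of the same class, given below. krt8 was even, at 548, 673, 529 and 516 CPM at 18, 20, 24 and 30 hpf and 618 CPM in the second 18 hpf library, and krt18b had 27.6, 120.0, 167 and 95.9 CPM at 18, 20, 24 and 30 hpf and 49.9 CPM in the second 18 hpf library, highest at 24 hpf. The share of mesenchyme cells with a UMI of krt18a.1 was 47.6, 60.1, 87.8 and 98.8% at 18, 20, 24 and 30 hpf and 49.2% in the second 18 hpf library, and after thinning each cell to 5000 UMIs it was 33.3, 35.6, 67.3 and 91.5% at 18, 20, 24 and 30 hpf and 20.3% in the second 18 hpf library. The median depth was 13346 to 26321 UMIs per cell in mesenchyme and 10932 to 27242 in myeloid cells, by library. In myeloid cells the share was 0, 21.4, 10.4, 0 and 0% at 14, 18, 20, 24 and 30 hpf and 19.6% in the second 18 hpf library unthinned. Thinned, it was 0, 16.7, 4.17, 0 and 0% at 14, 18, 20, 24 and 30 hpf and 10.8% in the second 18 hpf library.

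**Figure D4:**
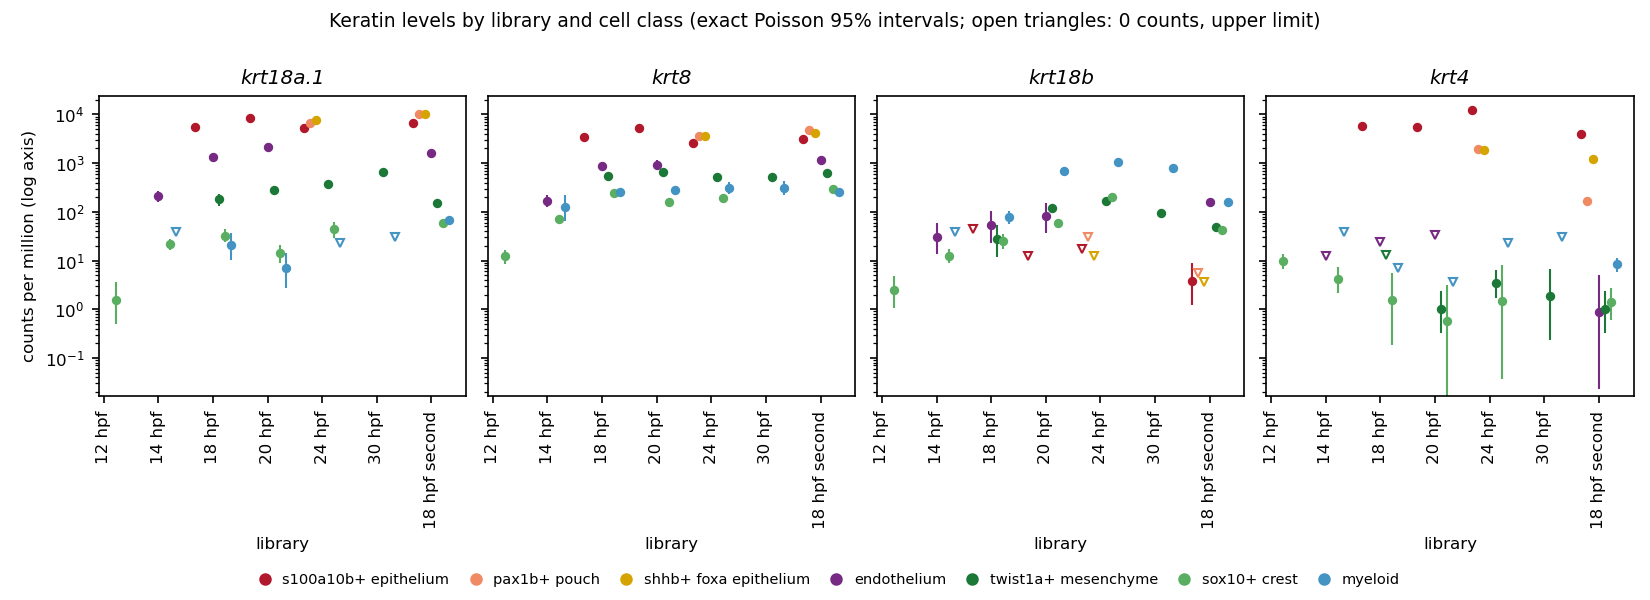
CPM (log axis) of krt18a.1, krt8, krt18b and krt4 by library and class, with exact Poisson 95% intervals and open triangles at the upper limit of classes with 0 counts. krt18a.1 and krt8 in mesenchyme lie below the epithelia and endothelium and above crest and myeloid cells in each library that holds both classes, krt18b has 0 counts in the anchored epithelia of the timeline, and krt4 in mesenchyme stays under 4 CPM.

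The level of krt18a.1 in mesenchyme was also taken without cells that held a UMI of an epithelial gene. When mesenchyme cells with a UMI of epcam, cdh1, s100a10b, pax1b or shhb were left out, krt18a.1 stood at 106, 239, 371 and 647 CPM at 18, 20, 24 and 30 hpf and 57.3 CPM in the second 18 hpf library. The 24 and 30 hpf levels hardly moved, and those of both 18 hpf libraries dropped. The 20 hpf level dropped too, from 282 to 239 CPM. In mesenchyme cells whose cluster was of the same class, 5 of 21 at 18 hpf, krt18a.1 stood at 750.2 CPM at 18 hpf and 183 CPM in the second 18 hpf library. On those 5 cells the 18 hpf level was above the 650 CPM at 30 hpf and far from the second 18 hpf library. Without the doublets called at 30 hpf, 11 of 82 mesenchyme cells, it stood at 672 CPM there. krt4 counts, which in all epithelial cells came to 0.589, 0.475, 0.714 and 2.01 at 18, 20, 24 and 30 hpf and 0.202 in the second 18 hpf library per count of krt18a.1, were fewer beside it in mesenchyme. There were 0, 0.00356, 0.00943 and 0.00289 at 18, 20, 24 and 30 hpf and 0.00662 in the second 18 hpf library per count of krt18a.1 in mesenchyme. The proportion varied among the epithelia, at 0.290 at 24 hpf and 0.0157 (95% counting interval 0.0129 to 0.0189) in the second 18 hpf library in the pouch class and 0.245 and 0.118 in the foxa epithelium. In the second 18 hpf library the mesenchyme interval, 0.00214 to 0.0155, overlapped that of the pouch class, and the part of epithelial RNA in mesenchymal krt18a.1 was not tested.

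Counts of the 2 type I keratins per count of their type II partner krt8 differed between groups of classes, and were given as a description. krt18a.1 counts per krt8 count were 1.62, 1.57 and 2.05 at 18, 20 and 24 hpf and 2.11 in the second 18 hpf library in the s100a10b-positive class. They were 1.86 at 24 hpf and 2.18 in the second 18 hpf library in the pouch class, 2.20 at 24 hpf and 2.56 in the second 18 hpf library in the foxa epithelium. In endothelium they were 1.24, 1.52 and 2.35 at 14, 18 and 20 hpf and 1.42 in the second 18 hpf library, so that the ranges of the s100a10b-positive class, the pouch class and endothelium overlapped. In mesenchyme the ratio was 0.327, 0.419, 0.707 and 1.26 at 18, 20, 24 and 30 hpf and 0.246 in the second 18 hpf library, below the epithelia in each library shared, and the 30 hpf value (95% counting interval 1.12 to 1.41) fell within the range of endothelium. In crest it was 0.128, 0.305, 0.135, 0.0877 and 0.222 at 12, 14, 18, 20 and 24 hpf and 0.201 in the second 18 hpf library. krt18b counts per krt8 count were near 0 in all 3 epithelia. They were 0.0503, 0.178, 0.315 and 0.186 at 18, 20, 24 and 30 hpf and 0.0807 in the second 18 hpf library in mesenchyme, and in myeloid cells they were 0, 0.297, 2.38, 3.45 and 2.50 at 14, 18, 20, 24 and 30 hpf and 0.606 in the second 18 hpf library. These are ratios of 3′ counts of different transcripts, and only their order between classes is read.

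**Figure D5:**
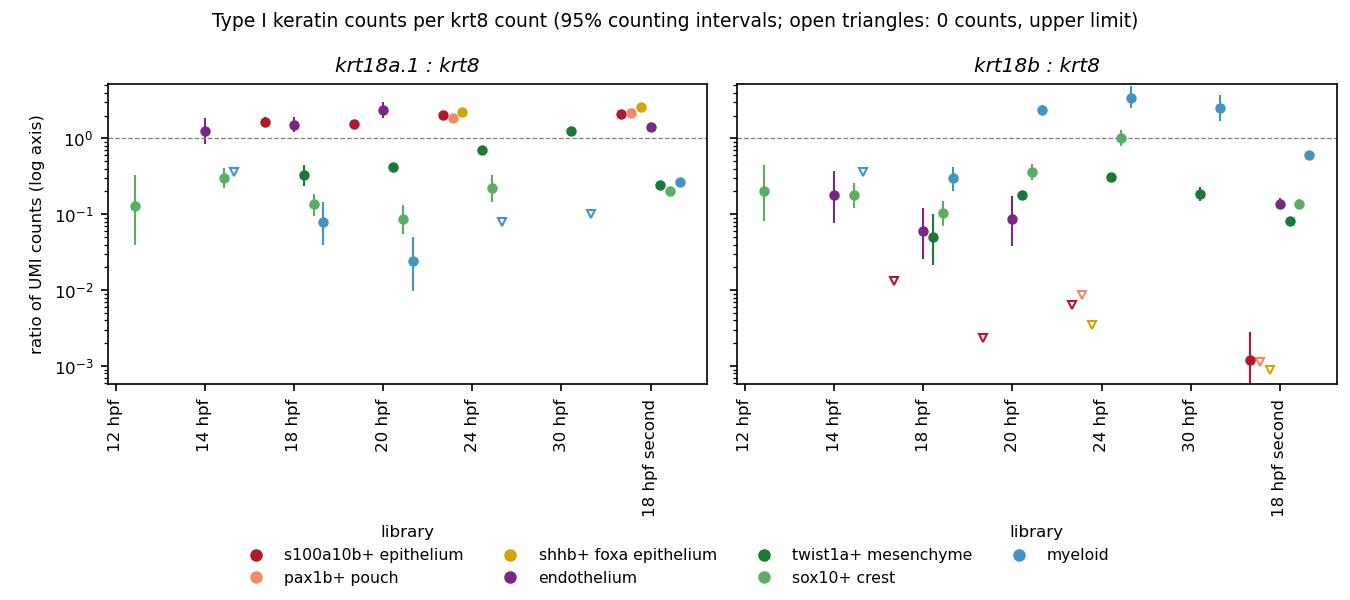
Counts of krt18a.1 (left) and krt18b (right) per count of krt8 in each library and class, on a log axis with 95% counting intervals, the dashed line at 1 and open triangles at the upper limit of a ratio with 0 counts. The krt18a.1 ratio is higher in the epithelia and endothelium than in mesenchyme and crest in each library shared, and the krt18b ratio is highest in myeloid cells from 18 hpf on and near 0 in the epithelia.

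The other members in mesenchyme were low. cldn12 had 27.6, 18.1, 22.2 and 26.3 CPM at 18, 20, 24 and 30 hpf and 16.3 CPM in the second 18 hpf library, cldn11b 10.3, 17.9, 14.8 and 16.9 CPM at 18, 20, 24 and 30 hpf and 10.1 CPM in the second 18 hpf library, cldn5a 2.82 to 10.2 CPM and cldnd1a 0 to 9.88 CPM. In crest cldn12 had 19.6 to 27.4 CPM, cldn11b 6.20 to 15.3 CPM and cldnd1a 4.32 to 12.4 CPM, ranges that overlap those of mesenchyme. krt94 had 17.2, 4.62, 2.12 and 0 CPM at 18, 20, 24 and 30 hpf and 26.6 CPM in the second 18 hpf library. krt4, at 0, 1.00, 3.53 and 1.88 CPM at 18, 20, 24 and 30 hpf and 1.01 CPM in the second 18 hpf library, was the most counted of the epithelial members in mesenchyme.

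Within crest-derived cells, mesenchyme was set against sox10 crest in the 4 libraries that held both, 18, 20, 24 hpf and the second 18 hpf library. krt18a.1 had 179, 282 and 374 CPM at 18, 20 and 24 hpf and 152 CPM in the second 18 hpf library in mesenchyme and 32.6, 14.0 and 43.7 CPM at 18, 20 and 24 hpf and 59.9 CPM in the second 18 hpf library in crest (log2 difference 2.67, SE 0.41, edgeR adjusted p = 0.00408). krt8 had 548, 673 and 529 CPM at 18, 20 and 24 hpf and 618 CPM in the second 18 hpf library in mesenchyme and 240.3, 159.6 and 197 CPM at 18, 20 and 24 hpf and 298 CPM in the second 18 hpf library in crest (log2 difference 1.39, SE 0.18, edgeR adjusted p = 0.00205). Both were higher in mesenchyme in 4 of 4 libraries and kept their calls in 16 of 16 alternatives. krt94 was also called higher (log2 difference 3.68, SE 0.60, edgeR adjusted p = 0.00584) and lost its call in 3 of 16. In all, 3 of 8 members tested were higher and 0 lower, where 2.06% of all genes were higher and 4.96% lower. krt18b did not pass (log2 difference 0.29, SE 0.25, edgeR adjusted p = 0.599).

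Over age, crest and mesenchyme cells of the 6 timeline libraries were summed and a log2 slope per hour was fitted. krt18a.1 rose by 0.38 per hour (SE 0.07, edgeR adjusted p = 0.0227), and cldn5a had a slope of -0.23 per hour (SE 0.04, edgeR adjusted p = 0.0144). These were 1 of 9 members tested in each direction, where 2.49% of all genes rose and 1.73% fell. The slopes of krt8 (0.24, SE 0.09, edgeR adjusted p = 0.169) and krt18b (0.30, SE 0.08, edgeR adjusted p = 0.0768) did not pass, but krt18b passed in 4 of 13 alternatives, the DESeq2 Wald test, no filter on low counts and the fits without the 20 hpf or the 30 hpf library. The share of mesenchyme among these cells grew with age, from 0 of 221 at 12 hpf to 82 of 86 at 30 hpf, so a change within cells and a change in the mix cannot be told apart. Each call was lost in 3 of 13 alternatives, all of them fits that left out 1 library, the 14 or the 24 hpf library for both, the 18 hpf library for krt18a.1 and the 12 hpf library for cldn5a.

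cldn5a, a claudin of the zebrafish neural tube and brain ventricles, was higher in the 12 and 14 hpf crest than in any later one, at 50.7, 52.7, 12.4, 6.72 and 7.28 CPM at 12, 14, 18, 20 and 24 hpf and 8.12 CPM in the second 18 hpf library. In the neural class, sorted with the crest, it had 589, 574, 759, 302 and 192 CPM at 12, 14, 18, 20 and 24 hpf, resting on 31 to 173 counts, and crest lay below it in each of those libraries. Whether neural transcripts add to its level in crest was not tested.

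Against myeloid cells, in 5 libraries, 3 of 10 members were higher in mesenchyme and 5 lower, where 28.6% of all genes were higher and 22.7% lower. The higher members were krt18a.1 (log2 difference 3.73, SE 0.63, edgeR adjusted p = 1.56e-04), cldn11b (log2 difference 3.22, SE 0.52, edgeR adjusted p = 1.13e-04) and krt8 (log2 difference 1.08, SE 0.19, edgeR adjusted p = 2.71e-04). Myeloid cells held keratins and claudins too, krt18b at 0, 77.5, 675, 1059 and 783 CPM at 14, 18, 20, 24 and 30 hpf and 157 CPM in the second 18 hpf library, krt94 at 699, 164, 55.9, 0 and 0 CPM at 14, 18, 20, 24 and 30 hpf and 260.0 CPM in the second 18 hpf library and cldng at 115, 22.7, 8.83, 0 and 0 CPM at 14, 18, 20, 24 and 30 hpf and 31.4 CPM in the second 18 hpf library. The 14 hpf values rest on 9 cells, 7 of them with only the minimum of 3 list genes. krt18b and krt94 were found in endothelium as well. In mesenchyme krt18b was lower (log2 difference -2.27, SE 0.25, edgeR adjusted p = 2.40e-06), and so were krt94 (log2 difference -3.14, SE 0.40, edgeR adjusted p = 1.59e-05) and cldng (log2 difference -5.31, SE 0.65, edgeR adjusted p = 1.65e-05). cldnc had 0 counts in mesenchyme, at least 30.6-fold fewer than in myeloid cells, which held 0 to 31.3 CPM. cldnb, called lower as well, rested on 19 counts in 10 of 48 myeloid cells at 20 hpf, 5 counts in 2 of 8 at 24 hpf and 67 counts in 21 of 158 in the second 18 hpf library, with 0 counts at 18 and 30 hpf. Its call and that of cldnc were lost without cells that held an epithelial UMI, and without the second 18 hpf library cldng and cldnc were no longer called. The epithelial genes of that setting include s100a10b, which had 0 to 1473 CPM in myeloid cells by library. It removed 111 of the 272 myeloid cells and left fewer than 5 at 24 and at 30 hpf, so fewer libraries were compared. The lost calls therefore do not tell epithelial RNA from loss of myeloid cells. The count of calls was 5 where the library was not a block. In the second 18 hpf library, krt18a.1 in myeloid cells was 68.9 CPM, and 22.6 CPM once the 1 myeloid cell called a doublet was left out.

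Tight junction, desmosome and filament-linker genes, and other intermediate filament genes such as vim, 42 partner genes in all, were counted beside the members. Of the 23 tested in the s100a10b-positive class, 14 were higher than in mesenchyme and 3 lower, where 16.1% of all genes were higher and 13.7% lower. The higher ones included f11r.1, a junctional adhesion molecule (log2 difference 9.01, SE 0.39, edgeR adjusted p = 1.99e-12), the plakophilin pkp3b of desmosomes (log2 difference 5.10, SE 0.39, edgeR adjusted p = 5.78e-09), pleca, a linker of filaments to junctions (log2 difference 4.30, SE 0.31, edgeR adjusted p = 2.24e-09), and lsr of tricellular junctions (log2 difference 6.96, SE 0.53, edgeR adjusted p = 6.43e-09). The tight junction genes oclna and tjp3 each had 1 count in mesenchyme, with ratios of 508 (95% counting interval 88.5 to 20343) and 441 (95% counting interval 76.3 to 17666). jam3b (log2 difference -5.44, SE 0.57, edgeR adjusted p = 4.91e-07), marveld1 (log2 difference -3.88, SE 0.54, edgeR adjusted p = 1.66e-05) and tjp1b (log2 difference -1.49, SE 0.39, edgeR adjusted p = 0.00718) were the lower ones.

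In the pouch class 17 of 25 partner genes were higher than in mesenchyme and 2 lower, against 8.05% and 6.58% of all genes. In the foxa epithelium 18 of 26 were higher and 2 lower, against 9.26% and 5.76% of all genes. In both, the lower genes were jam3b and marveld1. Between the epithelia 0 of 18 (s100a10b-positive against pouch), 0 of 21 (s100a10b-positive against foxa) and 0 of 19 (pouch against foxa) passed by edgeR, with 5, 6 and 2 at an unadjusted p under 0.05. Of all genes 0.310%, 0.334% and 1.12% were higher and 0.0954%, 0.236% and 1.28% lower in these comparisons. Endothelium had 7 of 15 higher and 1 lower, where 15.8% of all genes were higher and 14.8% lower, with cgnl1 (log2 difference 5.46, SE 0.39, edgeR adjusted p = 1.08e-08), jam2a (log2 difference 5.69, SE 0.64, edgeR adjusted p = 2.30e-06) and tjp1a (log2 difference 3.90, SE 0.28, edgeR adjusted p = 9.72e-09) among the higher ones, and jam2b at least 9.44-fold lower. Mesenchyme was higher than crest in 1 of 15, jam2b (log2 difference 2.43, SE 0.39, edgeR adjusted p = 0.00522), and against myeloid cells 7 of 12 were higher in mesenchyme and 2 lower. Of all genes 2.06% were higher and 4.96% lower in mesenchyme than in crest, and 28.6% higher and 22.7% lower than in myeloid cells.

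By place in the genome, 45 of the 46 members, all but cldn23b, were matched by symbol to RefSeq genes of assembly GRCz12tu, another build than the GRCz11 of the counts, which was used only for the order of neighbours. krt5, krt8, krt18a.1 and krt18a.2 follow one another, as do krt92, cyt1l, cyt1, krt17 and krt91. By mean CPM over libraries these last 5 were highest in the s100a10b-positive class. In the second 18 hpf library, though, krt92 had 73.4 CPM in that class and 121 CPM in the foxa epithelium. cldnj, cldne, cldnf and cldna form a run, and so do cldnh, cldnc and cldnb, krt222, krt97 and krt96, and krt94, krt98, krt15 and krt99. Within a run the highest class could differ, since among the 5 classes krt94 was highest in endothelium and krt99, at 133, 0 and 4.58 CPM at 18, 20 and 24 hpf and 5.99 CPM in the second 18 hpf library, in the s100a10b-positive class.

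The remaining members were rare. Outside the epithelia cldnf had 0 counts in every class. It had 12 counts at 24 hpf in the s100a10b-positive class, and cldn23a had 13 counts there and 0 in the other anchored classes. krt222 had 0 to 37.4 CPM in the s100a10b-positive class, up to 16.8 CPM in the pouch class and 0 counts in mesenchyme. cldng and cldnk had 0 counts in all 3 epithelia, and cldnk, a myelin claudin in zebrafish, reached 20.2 CPM in endothelium at 14 hpf on 6 counts. cldn15a reached 10.4 CPM in myeloid cells at 14 hpf on 1 count, and cldnh reached 16.8 CPM in the pouch class on 2 counts. cldna reached 12.1 CPM in the s100a10b-positive class at 18 hpf on 1 count. The 13 members that stayed under 10 CPM in every class and library of the heatmap were cldn10b, cldn15la, cldn17, cldn19, cldn23b, cldnd, cldnd1b, cldnj, krt1-19d, krt1-c5, krt15, krt18a.2 and krt98. krt98 had 0 counts in each of the 5 classes. krt15 reached 57.9 CPM at 20 hpf in the epithelial cells without an anchor, on 6 counts, and 129 CPM over the 14 epithelial cells at 30 hpf, on 21 counts. krt18a.2, the neighbour of krt18a.1, had 7 counts over the 5 classes, and how reads shared by both were assigned is uncertain. At 0 counts the floor of 3 counts allows up to 1.06 CPM in mesenchyme at 24 hpf and up to 25.2 CPM in the pouch class of that library, so a low member was not detectable in the smaller class at this depth. Intervals and floors cover counting error only.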

How the data were processed

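Photoconverted Tg(sox10:nEOS)w18 cells were sequenced by 10x in 7 libraries. The authors deposited whole-number UMI counts per gene and cell, 1 table for the 6 timeline libraries together and 1 for the second 18 hpf library, not normalised. The submitters' processing notes name Cell Ranger, Seurat 3 and the GRCz11 build. The counts were used as deposited. All 2854 cells passed a filter of 500 genes and at most 10% mitochondrial counts. Scrublet calls of doublets were recorded, and doublets were removed only as an alternative.

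Cells were classed by 79 marker genes, none of them a keratin or claudin. A cell needed UMIs of 3 genes of a class list, a larger share of that list than of any other, and an anchor where the class had one (3 or more UMIs of s100a10b, or 1 UMI of pax1b, of shhb with a foxa gene, of twist1a or of sox10). Each Leiden cluster took the marker list most common among its cells with a list (scanpy 1.11.5, leidenalg 0.10.2, 2000 variable genes, 20 principal components, 20 neighbours, resolution 0.8, seed 1). Of the 2367 cells with a class, 2139 fell in a cluster of their own list, called here a cluster of the same class. The 3 epithelial classes have the same list, so this does not check them against each other. Gating genes and members were left out of the clustering.

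Counts were summed per library and class where 5 or more cells were present. Sums were compared by edgeR 4.0.16 (R 4.3.3, TMM, filterByExpr, quasi-likelihood test), with the library as a block since both classes of a comparison come from the same library, and Benjamini-Hochberg adjustment over all genes tested at 0.05. The test was tested on simulated data. Exact Poisson, conditional binomial and Clopper-Pearson 95% intervals came from scipy 1.17.1, with a floor of 3 counts over a group. Alternatives were DESeq2 1.42.0, no filter on low counts, no block, other anchor thresholds (1 or 10 UMIs of s100a10b, shha or shhb), 10 cells, 4 list genes, doublets removed, cells whose cluster was of the same class, cells without epithelial UMIs, each library left out and, added after the data were seen, no anxa1c-positive cells.

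Members named in full were krt18a.1, those with a known site in zebrafish, the 5 largest called changes each way per comparison with the same direction in every library, and the 3 highest per class. cldnh in unanchored cells and the anxa1c-positive cells were singled out after their values were seen. The members, the 42 partner genes and all marker lists were chosen with earlier results of these data known.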

Additional observations from a re-analysis of the deposited data

Results flagged for a closer look

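5 members lay on opposite sides in the 24 hpf and the second 18 hpf library when epithelia were compared, with 1 library at each age and chemistry. These differences between the libraries were not tested, and age and chemistry cannot be told apart. For cldne the ratio of CPM in the s100a10b-positive class to the foxa epithelium was 14.8 (95% counting interval 8.16 to 29.3, 129 against 12 counts) at 24 hpf and 0.00275 (95% counting interval 6.94e-05 to 0.0155, 1 against 281 counts) in the second 18 hpf library, and its ratio to the pouch class was 4.68 (95% counting interval 2.74 to 8.61, 129 against 15 counts) and 0.0231 (95% counting interval 5.60e-04 to 0.143, 1 against 22 counts). Between the pouch class and the foxa epithelium cldne had ratios of 3.15 (95% counting interval 1.38 to 7.37, 15 against 12 counts) at 24 hpf and 0.119 (95% counting interval 0.0735 to 0.184, 22 against 281 counts) in the second library. All s100a10b-positive counts of cldne at 24 hpf lay in the 4 anxa1c-positive cells.

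cldnf, in the s100a10b-positive class over the foxa epithelium, had a ratio of 16.5 (95% counting interval 2.44 to 704, 12 against 1 counts) at 24 hpf, and in the second 18 hpf library 0 against 8 counts, which allows a ratio of up to 0.453. krt92 had 3.48 (95% counting interval 2.42 to 5.07, 109 against 43 counts) at 24 hpf and 0.606 (95% counting interval 0.461 to 0.796, 98 against 125 counts) in the second library in that comparison, and between the pouch class and the foxa epithelium 1.82 (95% counting interval 1.11 to 2.95, 31 against 43 counts) and 0.0974 (95% counting interval 0.0411 to 0.198, 8 against 125 counts). krt97 ran the other way, with a ratio of the s100a10b-positive class to the foxa epithelium of 0.367 (95% counting interval 0.209 to 0.616, 19 against 71 counts) at 24 hpf and 7.46 (95% counting interval 5.61 to 10.1, 511 against 53 counts) in the second library. krt91 had pouch to foxa ratios of 2.00 (95% counting interval 1.03 to 3.80, 19 against 24 counts) at 24 hpf and 0.361 (95% counting interval 0.256 to 0.500, 46 against 194 counts) in the second library. With 1 library per class and age, no single library could be tested for standing apart from others of its group.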

How the results depend on the processing

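Members called against mesenchyme in the s100a10b-positive, pouch and foxa classes, and in mesenchyme against crest, stayed within 1.5 times of the count given under every alternative that could be fitted, and no member called changed direction under any alternative. The comparisons among epithelia, with 2 libraries each, moved most. For the s100a10b-positive class against the pouch class 3 members became 7 with the DESeq2 Wald test, 13 with no filter on low counts, 1 with no replicate block, 11 with 10 or more s100a10b UMIs asked, 7 with shha or shhb as the foxa anchor, 8 with only cells whose cluster was of the same class, 6 with 4 or more list genes asked and 12 without anxa1c-positive cells. Against the foxa epithelium 4 became 12 with no filter, 0 with no replicate block, 0 with 1 or more s100a10b UMIs asked, 12 with 10 or more, 7 with shha or shhb and 11 without anxa1c-positive cells. For the pouch class against the foxa epithelium 4 became 2 with DESeq2 size factors, 1 with the DESeq2 Wald test, 0 with no replicate block, 2 with 10 or more s100a10b UMIs asked and 2 with 4 or more list genes asked. Of endothelium against mesenchyme, 4 became 2 with only cells whose cluster was of the same class. For mesenchyme against myeloid cells 8 became 5 with no replicate block, which here is the library that both classes share. Over age, leaving out 1 library gave 0 to 3 members, 0 without the 14 hpf or the 24 hpf library and 1 without the 12 hpf or the 18 hpf library and 3 without the 20 hpf or the 30 hpf library. The cause of these moves was not tested.

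Single calls were followed for members called with the main settings, and for krt8 and krt18b over age. Of those followed, 933 kept their side of the threshold, 51 lost it and 4, all of krt18b over age, gained it. A gene that an alternative did not test was left out, although its call ended there. One without an adjusted p was taken as kept. Calls gained by other members are not in these numbers. Levels moved by more than their counting interval in 49 of 304 cases, 25 of them when cells with an epithelial UMI were left out of other classes, and shares of cells moved in 22 of 58 cases after thinning to 5000 UMIs. Leaving out 1 library from a comparison of 2 libraries leaves no residual degree of freedom and could not be fitted, nor could the pouch comparisons with 10 or more cells asked. Depth limits the smaller classes most, such as the 9 pouch cells at 24 hpf. The libraries differ in age, the second 18 hpf library in chemistry too, and the classes rest on marker genes chosen here, with 376 cells in no class.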
